A study of Rattus norvegicus with 4 samples.

Results

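The enzymes that burn fatty acids in mitochondria and peroxisomes, and the peroxins that build peroxisomes, were examined in isolated glomeruli of male Wistar rats given Adriamycin (ADR, doxorubicin). Of 44 genes chosen by function, 41 had a row in the deposited table of 13261 usable genes. They comprised 25 of 26 genes of mitochondrial oxidation, 6 of 7 of peroxisomal oxidation and 10 of 11 peroxins; Eci2, Acox2 and Pex19 were not analysed here. The 4 samples form 1 group, labelled ADR, from rats injected intravenously with this anthracycline, which injures podocytes and causes nephrotic syndrome in rodents. Rats given puromycin aminonucleoside, with or without pioglitazone or GQ-16, belong to the wider study and were not analysed here, nor were untreated rats, so levels carry no direction relative to health. The labels name more than one day of harvest and do not tie a day to a sample. Nor do they state outright that each sample is a separate rat, and p-values therefore measure only the spread between these 4 samples, called animals or replicates 1 to 4 in what follows.

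Fatty acids are activated to acyl-CoA by long-chain acyl-CoA synthetases, passed into mitochondria through carnitine palmitoyltransferases, and shortened there in repeated rounds of dehydrogenation, hydration, a second dehydrogenation and thiolytic cleavage. Peroxisomes run a parallel pathway on very long, branched and dicarboxylic chains, with enzymes that peroxins import from the cytosol. In the kidney the proximal tubule is known for its heavy reliance on fatty acid oxidation, whereas glomerular cells are not, and many of these genes are targets of the PPAR nuclear receptors.

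Sequenced reads over the genes used numbered 13566962 to 16207027 per animal. Members took 0.323%, 0.294%, 0.254% and 0.283% of the reads of replicates 1 to 4. Each of the 41 members had at least 1 log2 CPM in every animal, where CPM is the number of reads per 1000000 reads of the sample, and the smallest number of reads was 94, for Pex7 in replicate 1. CPM is not divided by transcript length, so the levels below are compared between animals and not between genes.

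Most genes of both oxidation pathways were lowest in replicate 3, and the mean of the 10 peroxins was lowest in replicate 2. The mean of the mitochondrial genes was highest in replicate 1, as was that of the peroxisomal oxidation genes except with totals that leave out mitochondrially encoded genes, where replicate 2 stood at 6.63 and replicate 1 at 6.62. No animal was highest for the peroxins under every scaling: it was replicate 4 as deposited, replicate 1 with median-of-ratios scaling and replicate 3 with those totals. On the log2(CPM + 1) scale, the mean of the 25 mitochondrial genes was 6.22, 6.09, 5.87 and 6.04 in replicates 1 to 4, or 6.06 ± 0.15 (SD, n = 4). The mean of the 6 peroxisomal oxidation genes was 6.65, 6.58, 6.26 and 6.38, or 6.47 ± 0.18. The mean of the 10 peroxins was 4.67, 4.54, 4.66 and 4.68, or 4.64 ± 0.07. Replicate 1 minus replicate 3 was 0.35 and 0.39 in the enzyme groups, 0.02 in the 10 peroxins and -0.03 over all genes. The peroxin value averages genes that went both ways: per gene, on the log2 CPM scale, the difference ran from -0.39 to 0.28 with a median of 0.06. Replicate 1 was above replicate 3 in 22 of 25 mitochondrial, 6 of 6 peroxisomal and 7 of 10 peroxin members, against 44.6% of all genes. A list of 6 other peroxins had means of 4.04, 3.80, 3.65 and 3.97, so that its difference of 0.39 was as large as that of the enzymes; per gene its median was 0.18, and Pex5l, a relative of Pex5, had the largest, 2.05. These group means, and the differences between groups, were not tested, because the members were chosen with earlier results of these data known.

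**Figure D1:**
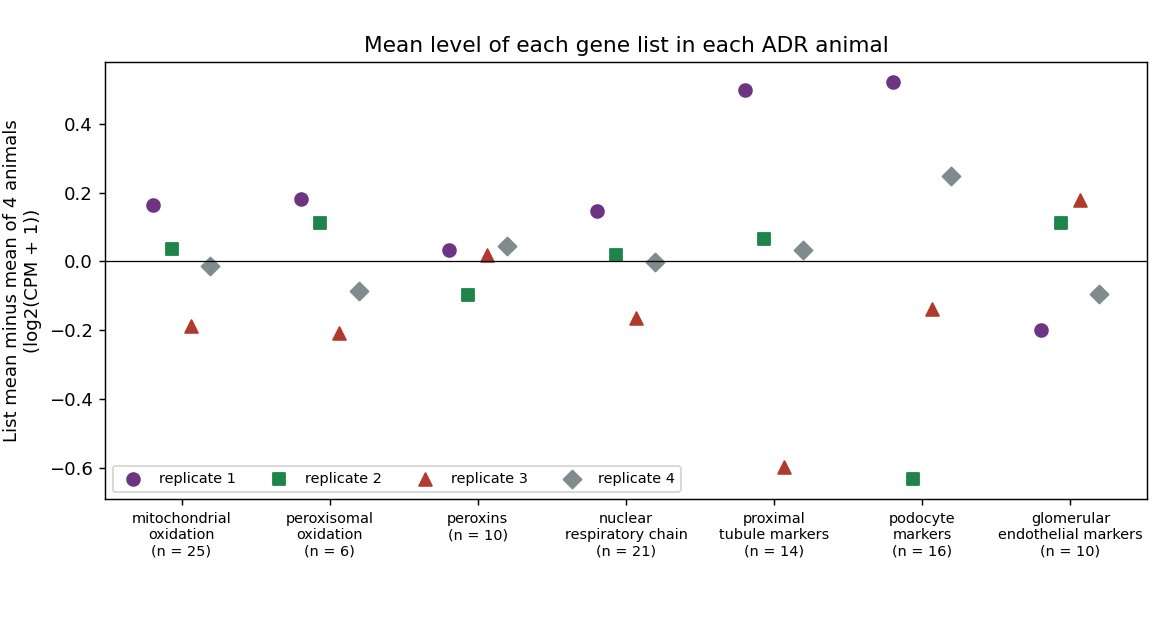
Mean level of 7 gene lists in each animal, as the list mean on the log2(CPM + 1) scale minus its mean over the 4 animals (vertical axis), with the number of genes n under each list (horizontal axis) and a symbol per replicate. As scaled here, replicate 3 is lowest and replicate 1 highest for both oxidation groups (replicate 2 is highest for the peroxisomal group with totals that leave out mitochondrially encoded genes), the nuclear respiratory chain and the proximal tubule markers, while the peroxins span less than the other lists shown.

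Counted by gene, 21 of the 25 mitochondrial members and 4 of the 6 peroxisomal members had their lowest value in replicate 3, against 19.6% of all genes. Among peroxins 1 of 10 did so, and 6 of 10 were lowest in replicate 2, against 31.5% of all genes. Replicate 1 held the highest value of 14 mitochondrial, 3 peroxisomal and 4 peroxin members, against 27.7% of all genes. Without replicate 2, replicate 3 was lowest for 5 peroxins and replicate 1 highest for all 6 peroxisomal members; without replicate 4, replicate 1 was highest for 7 peroxins. The exceptions among the mitochondrial genes were Cpt2, Acad8 and Acsl5, lowest in replicate 1, and Acad10, lowest in replicate 2.

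**Figure D2:**
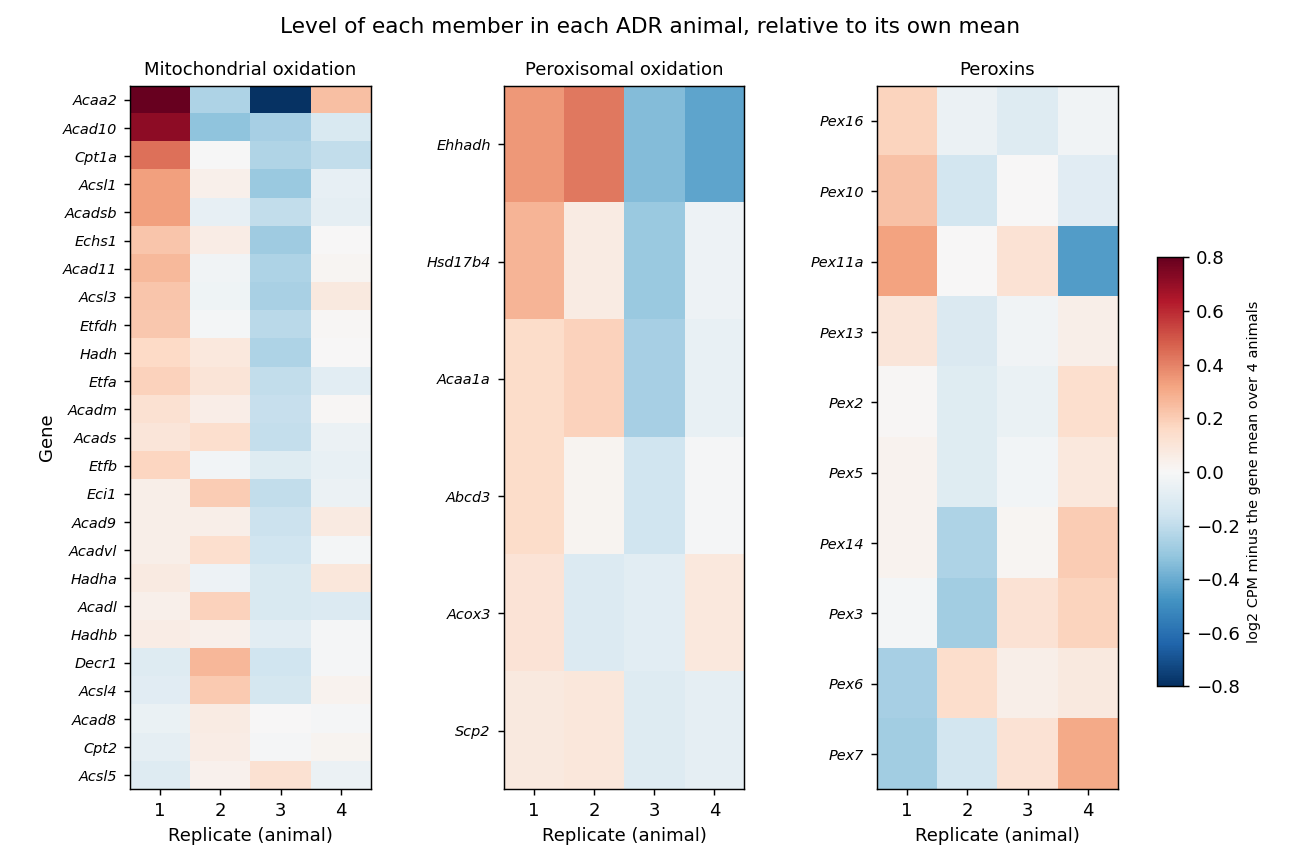
Each of the 41 members (rows) in each animal (columns), coloured by its log2 CPM minus the gene's own mean over 4 animals, in 3 panels for the subgroups and sorted by the difference between replicates 1 and 3. Most mitochondrial and peroxisomal enzymes are red in replicate 1 and blue in replicate 3, with Acaa2 and Acad10 the most deeply coloured, and the peroxin panel shows no common order.

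Entry of fatty acids was followed first. Cpt1a, the outer membrane carnitine palmitoyltransferase that controls entry, had 221, 162, 138 and 142 CPM in replicates 1 to 4 (166 ± 38.5, SD, n = 4). Replicate 1 stood above the other three animals. Cpt2, which reforms acyl-CoA inside the mitochondrion, had 20.5, 22.4, 21.4 and 21.8 CPM (21.5 ± 0.80). Variation of its reads beyond sampling was not detected (chi-square index of dispersion on reads, adjusted p = 0.75). Cpt1a minus Cpt2 was 3.43, 2.86, 2.68 and 2.70 (log2), a difference between animals that was not tested. Of the 4 synthetases, Acsl1 had 75.8, 62.1, 49.2 and 57.9 CPM and Acsl3 had 28.9, 24.2, 20.7 and 26.2 CPM, both highest in replicate 1. Acsl5 went the other way, with 125, 138, 146 and 130 CPM, highest in replicate 3. Acsl4, which prefers arachidonate, was highest in replicate 2 at 58.1 CPM and lowest in replicate 3 at 45.6 CPM.

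The acyl-CoA dehydrogenases take the first step, each for a range of chain lengths. Acadm, for medium chains, had 162, 154, 130 and 149 CPM, or 149 ± 13.3 (SD, n = 4). Acadvl, for very long chains, had 143, 152, 124 and 137 CPM. Acadl and Acads, for long and short chains, were likewise lowest in replicate 3, and the highest of the 4 animals exceeded the lowest by 1.22-fold to 1.25-fold in these 4 genes. The branched-chain enzyme Acad8, of valine breakdown, was the most even member on the log2 scale (SD 0.05), with 25.9 to 28.1 CPM. Acad9, which also helps to assemble respiratory complex I, had 32.7, 32.8, 28.1 and 33.3 CPM, low in replicate 3 alone. Acadsb, which acts on short branched chains, and Acad11, which acts on very long chains, were highest in replicate 1 and lowest in replicate 3, with ratios of 1.44 and 1.42.

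Acad10 had the largest spread of the acyl-CoA dehydrogenases among the members, a difference from its family that was not tested. It had 955, 557, 547 and 601 reads, or 70.4, 34.4, 35.6 and 39.4 CPM, in replicates 1 to 4. Replicate 1 was 2.05-fold above the lowest animal, and the other three lay between 34.4 and 39.4 CPM. Acad11, a close relative, had 34.0, 27.8, 23.9 and 28.7 CPM, so the difference Acad10 minus Acad11 was 1.05 (log2) in replicate 1 and 0.30 to 0.58 in the others.

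Electrons from these dehydrogenases pass to the electron transfer flavoprotein, whose subunits are Etfa and Etfb, and from it to Etfdh. Etfa had 129, 122, 99.2 and 107 CPM and Etfb 124, 109, 103 and 106 CPM. Etfdh had 72.3, 61.6, 53.5 and 62.6 CPM. All 3 were highest in replicate 1 and lowest in replicate 3. The difference between the subunits, Etfa minus Etfb, stayed between -0.06 and 0.17 (log2) in the 4 animals.

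The later steps on long chains are carried by the trifunctional protein, made of Hadha and Hadhb. Hadha had 193, 179, 169 and 196 CPM, or 184 ± 12.6 (SD, n = 4). Hadhb had 143, 141, 129 and 137 CPM, or 138 ± 6.02. Both were lowest in replicate 3, and they were among the more even members, with SDs of 0.10 and 0.06 (log2). Hadha minus Hadhb was 0.43, 0.34, 0.39 and 0.52 (log2), a spread of 0.08 (SD). A transcript length shared by all animals does not enter this spread, and the mix of transcripts in each animal was not examined.

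The start sites of Hadha and Hadhb face away from each other 301 bases apart on chromosome 6 in RefSeq's annotation of the rat build GRCr8 (the deposited values were made on another build, Rnor_6.0). The stretch that lies in both promoter windows is shown because the subunits of one protein complex share it. It is chr6:31907551-31907750, printed on the Hadha (plus) strand, 53.5% G and C. The capitals mark the only match to the GC box GGGCGG, here on the minus strand; CCAAT had 0 matches on either strand.
Hadha and Hadhb: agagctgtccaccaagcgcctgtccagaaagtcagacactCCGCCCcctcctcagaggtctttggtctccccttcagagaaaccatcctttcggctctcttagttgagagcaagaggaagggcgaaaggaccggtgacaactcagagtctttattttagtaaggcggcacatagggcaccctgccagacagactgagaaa

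Of the enzymes that act on shorter chains, Echs1 (hydratase) and Hadh (hydroxyacyl-CoA dehydrogenase) were highest in replicate 1 and lowest in replicate 3, at 44.7 against 31.3 CPM and 80.7 against 60.9 CPM. Eci1 and Decr1, which handle double bonds of unsaturated chains, were highest in replicate 2, at 66.5 and 65.7 CPM, and lowest in replicate 3, at 50.4 and 48.9 CPM.

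Acaa2, the mitochondrial thiolase that releases acetyl-CoA, was the most variable of the 41 members. It had 2928, 1699, 1102 and 2232 reads, or 216, 105, 71.8 and 146 CPM, in replicates 1 to 4 (135 ± 62.1, SD, n = 4). The 4 animals were well separated, with a ratio of 3.01 between replicates 1 and 3. Hadhb, which carries the thiolase of the trifunctional protein, had a ratio of 1.11 between its highest and lowest animal, and the difference Acaa2 minus Hadhb ran from 0.59 (log2) in replicate 1 to -0.85 in replicate 3. Acaa2 minus the peroxisomal thiolase Acaa1a was 1.10 in replicate 1, 0.75 in replicate 4, 0.02 in replicate 2 and -0.08 in replicate 3.

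In the peroxisomal pathway, Ehhadh, the bifunctional enzyme of straight and dicarboxylic chains and a classic PPARα target, had 64.1, 67.4, 39.5 and 37.5 CPM (52.1 ± 15.8, SD, n = 4). Replicates 1 and 2 were high and replicates 3 and 4 low, a division read from these values and not from the labels. Ehhadh alone of these 6 genes was lowest in replicate 4. Hsd17b4, the second bifunctional enzyme, which also serves branched chains and bile acid intermediates, had 193, 167, 130 and 155 CPM. Acaa1a had 101, 104, 75.6 and 87.3 CPM; reads of near-identical thiolase copies may be divided between genes, so its level is uncertain. Abcd3, a half-transporter of the peroxisomal membrane, had 127, 116, 103 and 114 CPM. Scp2, whose long form is a thiolase for branched chains, and the branched-chain oxidase Acox3 were the most even, with SDs of 0.10 and 0.11 (log2); Scp2 had 151, 152, 133 and 136 CPM, and Acox3 had 40.02, 34.4, 34.99 and 39.3 CPM.

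**Figure D3:**
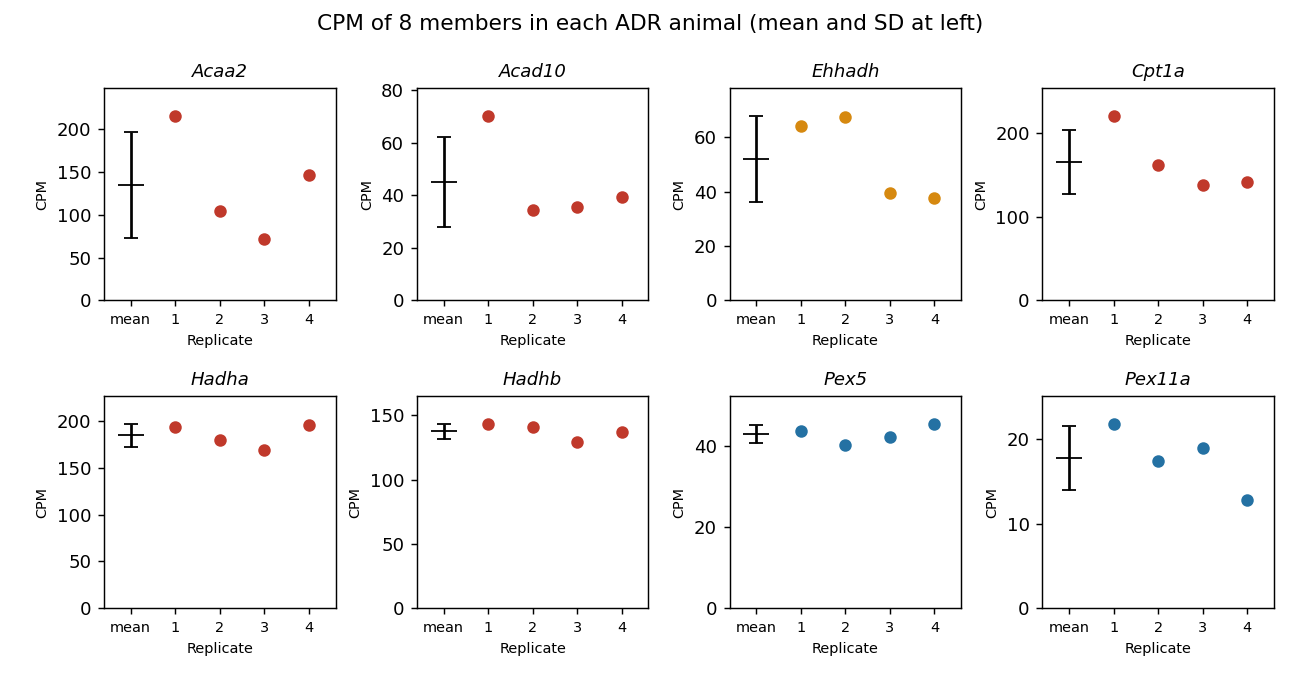
CPM (vertical axes, from 0) of 8 members in replicates 1 to 4 (points), with the mean and SD over the 4 animals at the left of each panel. Acaa2 falls on 4 separate levels from 216 to 71.8 CPM, Acad10 is high in replicate 1 only, Ehhadh is high in replicates 1 and 2, and Hadha, Hadhb and Pex5 are nearly level.

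Peroxins make peroxisomes and import their enzymes. Pex5, the receptor for the common C-terminal import signal, had 43.6, 40.04, 42.1 and 45.4 CPM (42.8 ± 2.28, SD, n = 4). Pex7, the receptor for the N-terminal signal, had 94, 123, 140 and 158 reads, or 6.93, 7.59, 9.12 and 10.4 CPM. It was lowest in replicate 1, unlike most oxidation enzymes, and its 4 values spanned 1.49-fold. Pex13 and Pex14, of the docking complex at the membrane, were both lowest in replicate 2, at 24.2 and 27.3 CPM; Pex13 reached 28.1 CPM in replicate 1 and Pex14 37.3 CPM in replicate 4. Pex2 and Pex10, of the ubiquitin ligase that recycles Pex5, were lowest in replicate 2 as well, at 24.9 and 14.99 CPM. Pex6, of the ATPase that extracts Pex5, had 38.9, 51.6, 48.3 and 49.4 CPM and was low in replicate 1. Of the genes for membrane insertion, Pex3 ranged from 13.0 to 17.8 CPM and Pex16 from 30.9 to 37.6 CPM. Pex11a, which promotes elongation and division and is inducible by peroxisome proliferators, was the most variable peroxin, with 21.8, 17.5, 18.9 and 12.8 CPM, and was lowest in replicate 4, as Ehhadh was.

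Whether these differences exceeded sampling of reads, and then the spread of other genes, was tested over all 13261 genes, with Benjamini-Hochberg adjustment at 0.05. Variation beyond counting error (chi-square index of dispersion) was found for 35 of the 41 members, against 69.5% of all genes. The members below the threshold were Cpt2, Acad8 and Acad9 among the 25 mitochondrial genes and Pex2, Pex5 and Pex13 among the 10 peroxins; all 6 peroxisomal oxidation genes passed. Excess variance against genes of like abundance (limma's abundance trend) was called for 0 of the 41 members and for 0% of all genes, with a smallest adjusted p of 0.912. Limma fits the reference spread and its 3.79 prior degrees of freedom to these same genes. Such a test seldom passes adjustment here, so 0 calls do not show that genes of like abundance vary alike. At an unadjusted p under 0.05 limma named 3 members, against 5.47% of all genes. With the dispersion trend held fixed, a Pearson statistic on reads also called 3 members, against 7.6% of all genes, a share close to that of the members. These were Acaa2 (adjusted p = 1.1e-10), Acad10 (adjusted p = 6.6e-06) and Ehhadh (adjusted p = 0.00351), and limma's adjusted p was 0.912 for each.

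The Acad10 call rested on replicate 1, without which its adjusted p at the fixed trend was 1. The Ehhadh call was lost without replicate 4 (adjusted p = 0.179) and ranged from 0.00157 to 0.0399 when another animal was left out. Acaa2 stayed below the threshold whichever animal was left out, with adjusted p from 2.53e-10 to 0.00368. Cpt1a was at 0.093 with all animals, at 0.0183 without replicate 2 and at 0.0486 with median-of-ratios scaling.

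The median SD over animals was close to that of all genes in each subgroup, although members had more reads (a median of 766 against 439). It was 0.17 (log2) for mitochondrial, 0.17 for peroxisomal and 0.18 for peroxin members, beside 0.18 for all genes, and single members ran from 0.05 to 0.68. The highest and lowest animal differed by at least 2-fold for 2 members, Acaa2 and Acad10, against 9.05% of all genes. Without replicate 1 the median SD of the peroxins was 0.11.

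**Figure D4:**
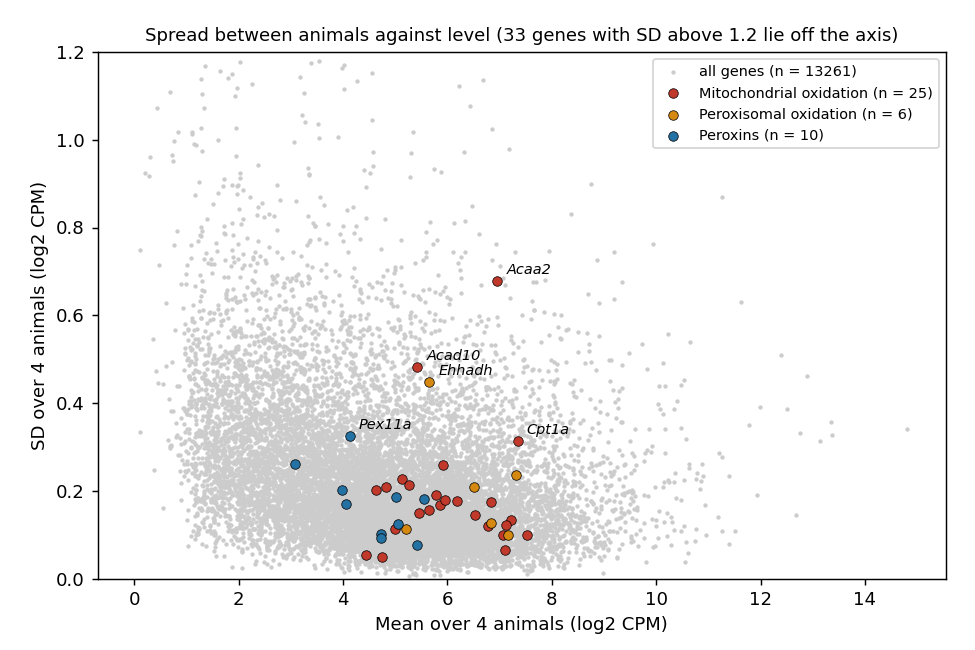
SD over 4 animals against mean level, both in log2 CPM, for all genes (grey) and the members (coloured by subgroup); 33 genes with an SD above 1.2 lie off the vertical axis. Most members lie within the grey cloud, and Acaa2, Acad10 and Ehhadh lie above most genes of like level.

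Further genes of these pathways were taken from lists made by function, with earlier results of these data known. Over all genes 19.6% were lowest in replicate 3 and 7.6% were called at the fixed trend. Of 15 other mitochondrial genes, 10 were lowest in replicate 3, and the fixed trend called Slc22a5 alone, the carnitine transporter of the cell membrane, with 171, 143, 91.5 and 141 CPM (adjusted p = 0.0173). Acat1, a mitochondrial acetoacetyl-CoA thiolase, had 185, 150.5, 121 and 137 CPM. Acot13, a thioesterase, had 4.92 to 6.63 CPM. The muscle isoform Cpt1b, by contrast with Cpt1a, was lowest in replicate 1, at 21.3 CPM, and highest in replicate 4, at 33.2 CPM.

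Of 19 other peroxisomal genes, 9 were lowest in replicate 3 and 3 were called at the fixed trend, against the 19.6% and 7.6% of all genes. Hao2, a hydroxy acid oxidase, had 1244, 1010, 526 and 785 CPM (adjusted p = 0.0176). Dao, which oxidises D-amino acids, had 312, 261, 154 and 177 CPM (adjusted p = 0.00223). Slc27a2, a very long chain acyl-CoA synthetase and fatty acid transporter, had 170, 171, 95.5 and 159 CPM (adjusted p = 0.0422). Abcd2, a transporter of very long chains, had 3.46 to 6.95 CPM. Of 6 other peroxins, Pex5l was called (17.7, 7.10, 4.23 and 9.84 CPM, adjusted p = 1.5e-05), whereas Pex11g (3.54 to 5.06 CPM) was not. Limma called 0 genes in each of these lists, and at an unadjusted p under 0.05 it named 0 of the 15, 3 of the 19 and 1 of the 6, against 5.47% of all genes.

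Regulators and PPAR-responsive genes were examined because the wider study concerns PPARγ agonists. Ppara, the receptor that drives these pathways in liver, had 114, 100, 73 and 50 reads (8.40, 6.17, 4.76 and 3.28 CPM), and replicates 3 and 4 lay below replicates 1 and 2, as for Ehhadh, although it was not called at the fixed trend (adjusted p = 0.14). The nuclear receptors Ppard, Rxra and Esrra and the corepressor Nrip1 differed by at most 1.41-fold between animals, Nrip1 least (51.1 to 55.4 CPM). The coactivators Ppargc1a (7.88 to 14.4 CPM) and Ppargc1b (3.58 to 5.80 CPM) were lowest in replicate 3.

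Hnf4a, a transcription factor of tubular epithelium, had 260, 239, 132 and 172 CPM and was called at the fixed trend (adjusted p = 0.00758). So were the fatty acid ω-hydroxylase genes Cyp4a1 (50.9, 48.5, 26.1 and 43.7 CPM, adjusted p = 0.00808) and Cyp4a2 (921, 1025, 463 and 408 CPM, adjusted p = 0.000257). Cyp4a2 had the pattern of Ehhadh, high in replicates 1 and 2, whereas Cyp4a3 and Cyp4a8 were low in replicate 3 alone; near-identical Cyp4a copies may share reads. The lipase inhibitor gene Angptl4 (6.19, 22.6, 7.36 and 9.71 CPM, adjusted p = 1.33e-07) was high in replicate 2. The lipid droplet gene Plin2 (52.2 to 66.5 CPM) was highest in replicate 2, and the pyruvate dehydrogenase kinase gene Pdk4 (17.6 to 31.6 CPM) in replicate 4. Of the 16 genes of this list, 9 were lowest in replicate 3, limma called 0 (4 at an unadjusted p under 0.05) and the fixed trend called 4, against 19.6%, 0%, 5.47% and 7.6% of all genes.

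Because sieved glomeruli can carry tubule fragments, marker genes were set beside these results. All 14 proximal tubule markers were lowest in replicate 3, against 19.6% of all genes, and 11 were highest in replicate 1, against 27.7%. None of these markers was at 0 (the fewest reads were 852). Their summed level was 9634, 7287, 4770 and 7216 CPM in replicates 1 to 4, and their list mean was 1.09 (log2) higher in replicate 1 than in replicate 3. The enzyme groups moved by 0.35 and 0.39 over the same pair, and Acaa2 alone by 1.59. Slc34a1, the phosphate transporter of this segment, had 1749, 1537, 1119 and 1818 CPM. The part of tubular RNA in the order of the enzymes was not tested, and fewer cells of a type and less RNA per cell cannot be told apart in these samples.

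The 21 nuclear genes of the respiratory chain were also low in replicate 3: 20 were lowest there, against 19.6% of all genes. Replicate 1 exceeded replicate 3 by 0.31 in the list mean. Reads of genes encoded in mitochondrial DNA did not follow this order, at 7.63%, 12.8%, 9.65% and 7.74% of the total. The 16 podocyte markers were all highest in replicate 1 and all lowest in replicate 2, against 27.7% and 31.5% of all genes. Their summed levels were 10940, 5862, 7632 and 9477 CPM. Synpo, an actin-binding protein of podocyte foot processes, had 780, 204, 328 and 655 CPM. The 10 endothelial markers had the reverse of the enzymes' order at its ends, with 7194 CPM in replicate 1 and 9499 CPM in replicate 3. Summed mesangial markers ran from 2425 to 3086 CPM, distal nephron markers from 650.1 to 773 CPM and immune markers from 1047 to 1342 CPM. Of the 8 immune markers, 7 were lowest in replicate 1, against 35% of all genes, and their list mean was lower in replicate 1 than in replicate 3 (a difference of -0.60), a larger shift than that of the enzyme groups over the same pair; Ptprc, a leukocyte surface phosphatase, had 48.4, 66.1, 108 and 70.8 CPM. Cd74, of antigen presentation, gave 566 to 777 CPM of the immune sum and was lowest in replicate 4. No marker was at 0 in any animal. The part of these cell types in the members' values was not tested.

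Promoters were read from RefSeq (GRCr8), 250 bases before to 50 after each start, for 36 of the 41 members; Acadl, Decr1, Acaa2, Pex2 and Pex6 had no entry. The element bound by PPAR and RXR was searched as 2 copies of AGGTCA on the same strand with 1 base between them, on either strand, with at most 2 mismatches over the 12 letters. It was found in 3 of the 36 windows (8.33%) and in 3.77% of all 33469 windows, which include those of noncoding and predicted genes. The matches are shown because they are the members whose start region comes nearest to this element; the capitals mark the match with its spacer base, and each is printed on the strand of its gene, which is the minus strand for all 3. Acadvl has 1 mismatch, beginning 17 bases before its start (chr10:55236706-55236734), and Echs1 (155 bases before, chr1:204333637-204333673) and Etfa (154 bases before, chr8:64788095-64788131) have 2 each, matching the reverse complement.
Acadvl: agacgggagaagAGGTCAGTGGTCAaggc
Echs1: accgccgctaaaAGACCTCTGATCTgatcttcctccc
Etfa: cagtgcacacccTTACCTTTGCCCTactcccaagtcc

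These 3 genes were lowest in replicate 3, as most mitochondrial members were, and none was called at the fixed trend. Neither Ehhadh nor Cpt1a had a match in its window. The 9-letter element TNAAGGTCA, bound by Esrra, was found in 0 of 36 windows and in 1.2% of all windows. The GC box GGGCGG was found in 28 of 36 windows (77.8%) and in 33.1% of all, and CCAAT in 12 (33.3%) and 37.5%, each on either strand. A match describes the letters of a window and is not evidence of binding.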

How the data were processed

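Poly(A) RNA from sieved glomeruli was sequenced from stranded libraries, per the labels' protocols. HISAT2, featureCounts (Subread) and limma and the build Rnor_6.0 are named in the submitters' processing notes; versions, roles and the strand setting are not given in the sources used here. The authors deposited log2 values, 1 column per sample. With 2 raised to the deposited value, the result was a whole number of reads plus 0.5, times a constant of its sample, for 100% of values (within 0.01 reads), so the reads were recovered; the totals were 13566962, 16207027, 15348629 and 15244063. In 4 rows values were displaced between columns, and these were left out.

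Variation of the reads beyond counting error was tested by chi-square, with 3 degrees of freedom per gene. The residual variance of log2(CPM + 1), with a pseudocount of 1, was tested against the abundance trend in an intercept-only fit (limma 3.58.1, R 4.3.3). A Pearson statistic at a fixed dispersion trend, centred in 40 bins of mean reads (scipy 1.17.1), was run as well; it is known from earlier work on these data to make calls where limma makes none. P-values were adjusted by Benjamini-Hochberg over 13261 genes, and each test was first tried on simulated reads. Within each simulation the genes shared the same spread, apart from genes raised in an animal on purpose. How the tests behave where spread differs from gene to gene was therefore not tried. Members and lists were chosen with earlier results of these data known. Genes named were, per subgroup, the 3 highest and 2 lowest by mean CPM, the 3 of largest and 2 of smallest SD, and all called; other members are described in passing. Of the other pathway lists, the highest, the lowest and the called genes were named, with every regulator and PPAR-responsive gene, Synpo and Slc34a1; further marker genes that the rule would name are given as sums only, and some genes that it names are not reported here. Cpt1b and the GC and CCAAT boxes and TNAAGGTCA were added after values were seen. Alternatives were another scaling, pseudocount, filter, prior or grouping, and leaving out each animal. Targeting signals in protein sequences were not analysed here.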

Additional observations from a re-analysis of the deposited data

Results flagged for a closer look

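Of 100 results examined (the members, their 3 list means and the other pathway genes), in 5 of them 1 animal stood away from its group, by a Dixon ratio of gap to range above the critical value, which is the number that chance gives at 1 in 20; over all genes 5.08% met this criterion. Acad9 was set apart by a low replicate 3 (ratio 0.880; 28.1 CPM against 32.7 to 33.3). Its variation beyond counting error missed the threshold narrowly (adjusted p = 0.0558, chi-square test). Slc27a2 (ratio 0.875), Cyp4a3 (0.939) and Cyp4a8 (0.888) were also set apart by a low replicate 3, with 95.5, 53.9 and 88.7 CPM there. Hsd17b10, which acts in isoleucine and branched-chain oxidation, was set apart by a high replicate 1 (ratio 0.838; 19.0 CPM against 16.1 to 16.5), with no variation beyond counting error detected (adjusted p = 0.262, chi-square test).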

How the results depend on the processing

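No paired analysis was possible because the samples form a single group. Among the members, 28 to 36 varied beyond counting error under all alternatives run, and limma called 0 under each of them, in the members and in all genes. The fixed trend called 2 to 4 members; over all genes its number was 1008 and ran from 609 to 720 when an animal was left out. Acad10 lost its call without replicate 1 and Ehhadh without replicate 4, and Cpt1a gained one without replicate 2 and with median-of-ratios scaling, as given above. The number of mitochondrial members lowest in replicate 3 stayed between 20 and 22, and the number highest in replicate 1 between 10 and 18, with the 10 from totals without mitochondrially encoded genes. By the median over genes, the peroxisomal level was 6.69 and the peroxin level 4.78; with Acad11 counted as peroxisomal, the level of that group was 6.24. The median SD of the peroxins ran from 0.11 to 0.21 when an animal was left out. With at most 1 mismatch the PPAR element was found in 1 of 36 promoters (2.78%), against 0.439% of all windows. The cause of these shifts was not tested. Scaling moved the median gene by at most 0.05 (log2). With 4 animals and no control group, small differences between animals cannot be told from preparation.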
